A study of Rattus norvegicus with 4 samples.

Results

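The genes described here store, carry and sense iron in the liver or clear haem and haemoglobin from plasma, and they were chosen by name: hepcidin (Hamp), transferrin (Tf), both transferrin receptors (Tfrc and Tfr2), the ferritin chains (Fth1 and Ftl1), ferroportin (Slc40a1), haptoglobin (Hp), hemopexin (Hpx) and haem oxygenase 1 (Hmox1). Of these 10 names, 9 matched 1 row each among the 32545 genes of the table, and Slc40a1 was not analysed here. Messenger RNA of rat (Rattus norvegicus) liver was sequenced in 4 libraries, 2 from forced activity controls and 2 from sleep restriction, which by the study's design was added to forced activity. Both groups were therefore kept active, and the comparison is of restricted sleep added to that. Strain, sex, age, the length of the treatment and the time of sampling are not given in the sources used here. Nothing there says that the libraries of a group came from separate animals, so p-values measure only the spread between these libraries.

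Iron in plasma travels bound to transferrin and enters cells through transferrin receptor 1, while ferritin holds the surplus inside the cell. The hepatocyte reads iron through transferrin receptor 2 and bone morphogenetic protein (BMP) signals and answers by secreting hepcidin, which closes the exporter ferroportin. Hepcidin is also induced by interleukin 6 through STAT3. Haptoglobin binds free haemoglobin, hemopexin binds free haem, and haem oxygenase 1 opens the haem ring and frees its iron, mainly in macrophages.

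The promoter of Hamp is shown first because both control routes of hepcidin meet there. RefSeq promoters on the build GRCr8 were matched for 6 of the 10 names, of which 5 also have a row in the table. The windows were searched on both strands, over the 250 bases before each start, for a STAT consensus (TTCNNNGAA), the core of a BMP response element (GGCGCC), the core of an antioxidant response element (TGACNNNGC) and an E-box (CACGTG). None of these motifs overlapped another in the windows below, all 3 lie on the minus strand, and capitals mark the matches. The sequences are those of the members in which a motif was found.

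Hamp, chr1:95300272-95300521 (GRCr8): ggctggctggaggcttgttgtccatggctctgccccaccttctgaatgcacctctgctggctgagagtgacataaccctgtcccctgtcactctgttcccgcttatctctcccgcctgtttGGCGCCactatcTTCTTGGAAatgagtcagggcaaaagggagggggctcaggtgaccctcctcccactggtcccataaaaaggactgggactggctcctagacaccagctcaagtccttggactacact
Tfrc, chr11:81690319-81690568 (GRCr8): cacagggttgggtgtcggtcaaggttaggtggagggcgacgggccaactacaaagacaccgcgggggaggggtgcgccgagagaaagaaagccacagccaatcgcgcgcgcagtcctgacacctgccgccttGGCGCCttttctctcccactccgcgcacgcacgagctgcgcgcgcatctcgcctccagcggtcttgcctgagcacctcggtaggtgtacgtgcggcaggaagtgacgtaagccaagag
Hpx, chr1:169352156-169352405 (GRCr8): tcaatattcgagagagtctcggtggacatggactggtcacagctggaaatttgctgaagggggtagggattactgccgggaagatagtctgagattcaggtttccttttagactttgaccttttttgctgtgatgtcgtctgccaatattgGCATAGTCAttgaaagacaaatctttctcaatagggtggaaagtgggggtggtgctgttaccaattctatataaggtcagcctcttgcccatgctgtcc

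The Hamp window holds the BMP core at 129 to 124 bases before the start and the STAT consensus at 117 to 109 bases before it. Among 33469 promoters of this length, 7.667% held the STAT consensus, 8.695% the BMP core and 0.3795% both. Tfrc holds the BMP core at 118 to 113 bases before the start, and Hpx an antioxidant core on the reverse strand at 99 to 91 bases, which 10.08% of promoters held in either direction. Tf and Tfr2 held none of the 4 motifs in the window, and the E-box, present in 5.593% of promoters, was in none of the 5. The loop letters of the iron-responsive element (CAGTG), searched on the sense strand in the 50 bases after the start, were in none of the 5 and in 7.389% of all promoters. Neither ferritin chain had a matched promoter, and bases further into each message were not searched. The search therefore cannot show which of these genes carry the element. A match in letters is not a binding site.

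The tabulated counts summed to between 508203 and 520276 per library, but more genes were above 0 in the libraries numbered 1 (14008 and 14105) than in those numbered 2 (11943 and 10952). Sleep restriction 2 also stood apart in its values, which are whole numbers in 32544 of the 32545 rows, against 19550 to 21691 rows in each of the other libraries. Its values look like a single set of counts and the others like averages over draws, which by itself puts more genes above 0. The numbers of genes above 0 therefore do not give the depth before drawing. Forced activity 2 also has the look of averages, yet it had fewer genes above 0 than forced activity 1. The source of that difference was not tested. Because more genes were above 0 in the libraries numbered 1, differences between same-numbered libraries are given beside the pooled ones. All 10 hepatocyte markers looked for were tested, and their summed level lay between 177820 and 189789 counts per 1000000 counts (CPM) in each library. Albumin (Alb) alone made up 119064 to 137981 CPM of it, so the sum says little about the other markers. Their log2 changes, 6 positive and 4 negative, ran from -0.56 for Apoa1 to 0.33 for Ass1, with 0 called. Markers of cholangiocytes summed to at most 35.2 CPM and of neutrophils to at most 5.80 CPM. All 9 iron and haem genes passed the filter on low counts, and together they held from 4.42% (95% Wilson interval 4.37 to 4.48) of the counts in forced activity 2 to 5.32% (5.26 to 5.38) in forced activity 1. These intervals cover counting error only. They take each tabulated total as a single draw of reads, which may not hold for the libraries that look like averages.

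Hepcidin and transferrin messages were nearly level between the groups, the L chain of ferritin and transferrin receptor 2 measured lower under sleep restriction, and none of the 9 passed the test. Calls were made where edgeR's quasi-likelihood test gave an adjusted p under 0.05, with Benjamini-Hochberg adjustment over the 4986 genes tested. That rule called 0.0201% of all genes tested (1 gene, lower; 0 higher) and 0 of the 9. At an unadjusted p under 0.05 in the same test there were 0 of the 9, against 4.25% of all genes. The 9 adjusted p-values in edgeR lay between 0.978 and 0.99997. In log2 change, 7 of the 9 were negative and 2 positive, with a median of -0.14, against a median of 0.00445 and a share of 47.7% negative over all genes tested. The negative genes include Hamp at -0.000424 and Hp at -0.00708, both near 0 and of a sign that turned when single libraries were left out. Both sleep restriction libraries were below both forced activity libraries for 2 genes, Tfr2 and Ftl1, where 15.5% of all genes tested had that order. The opposite order was held by 0 of the 9 and by 17.3% of all genes, and 32.8% of all genes did not overlap in one direction or the other.

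**Figure D1:**
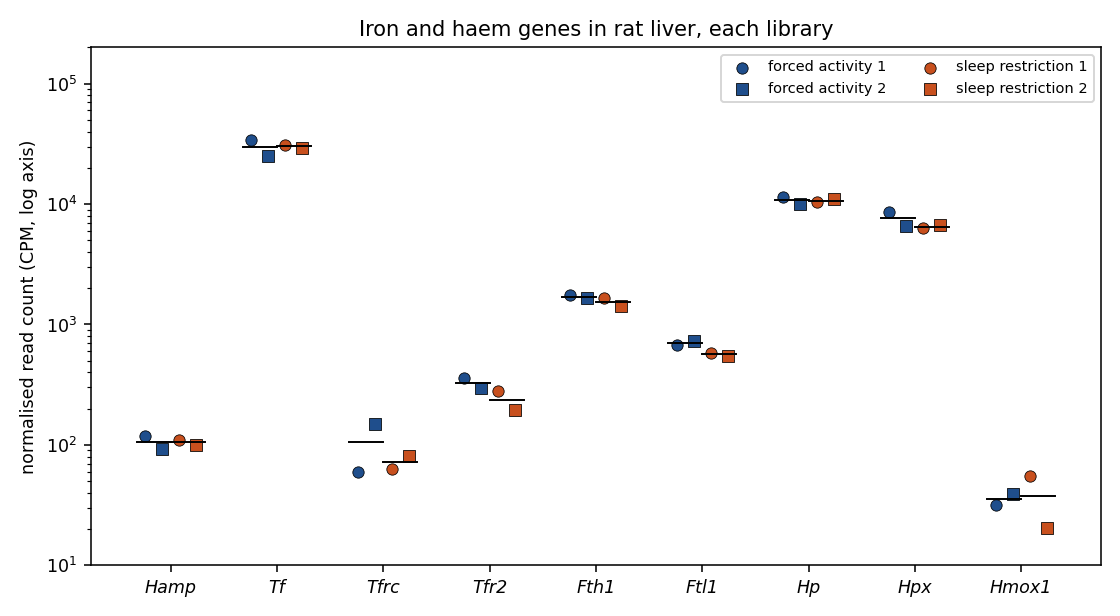
Normalised read counts (CPM, log axis) of the 9 iron and haem genes in each of the 4 libraries, with forced activity in blue, sleep restriction in orange, circles for replicate 1, squares for replicate 2 and bars at the mean of each group. The groups of Tfr2 and Ftl1 do not overlap, those of the other 7 do, and heights of different genes are not comparable because CPM is not corrected for transcript length.

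Hepcidin is the hormone that lowers iron export into plasma. Hamp (ENSRNOG00000021029.4, chromosome 1 from 89368021 to 89369960 in rn6) measured 119 CPM in forced activity 1, 91.5 CPM in forced activity 2, 109.9 CPM in sleep restriction 1 and 99.7 CPM in sleep restriction 2. Pairs of values below keep this order, replicate 1 before replicate 2. Both sleep restriction values lay between the forced activity values. The group means were 105 ± 19.2 and 105 ± 7.21 CPM (SD, n = 2 libraries each), a log2 change of -0.000424 with a standard error (SE) of 0.23. The 95% interval of the change ran from -0.51 to 0.51, so a difference beyond 1.43-fold in either direction lies outside it. The difference within replicate 1 was -0.11 and within replicate 2 it was 0.12, smaller than the -0.36 between the 2 forced activity libraries.

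Transferrin, the iron carrier of plasma, had the second-largest count of any gene in each library. Tf (ENSRNOG00000030625.6, chromosome 8 from 111673547 to 111721333) measured 34172 and 25268 CPM under forced activity and 31117 and 29345 CPM under sleep restriction. Here too the sleep restriction values fell inside the range of the controls. Its log2 change was 0.02 (SE 0.21, 95% interval -0.44 to 0.49), with -0.14 within replicate 1 and 0.22 within replicate 2. The counts behind these values were 12975.4 or more in each library.

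Transferrin receptor 1, which takes up iron-loaded transferrin and is abundant in cells that make haemoglobin, varied most. Tfrc (ENSRNOG00000001766.7, chromosome 11 from 71397383 to 71419223) measured 59.3 and 150.0 CPM under forced activity and 63.1 and 81.4 CPM under sleep restriction. Forced activity 2 stood above the other 3 libraries, and the groups overlapped. The log2 change was -0.54 (SE 0.39, 95% interval -1.43 to 0.33), with 0.08 within replicate 1 and -0.85 within replicate 2. Without forced activity 2 the log2 change was 0.28, of the opposite sign.

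Red cell markers had the same high library. Summed over 10 marker genes they measured 836 and 1702 CPM under forced activity and 1121 and 649 CPM under sleep restriction. Almost all of this was haemoglobin, and of the remaining markers Alas2, the erythroid enzyme of haem synthesis, had 2.2 to 5.7 counts, Slc4a1 had 0 to 3.7, Ahsp had 0 to 1.3, Epb42 had 0 to 0.4, and Rhag was listed at 0 in each library. Tfrc did not follow these markers in every library, being lower in sleep restriction 1 than in sleep restriction 2 where the markers were higher. Their part in the value of Tfrc was not tested, and in bulk tissue fewer cells of a type and less RNA per cell cannot be told apart.

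Transferrin receptor 2, the hepatocyte's sensor of iron-loaded transferrin, had the smallest unadjusted p of the 9 genes. Tfr2 (ENSRNOG00000001407.7, chromosome 12 from 22177382 to 22194299) measured 360.2 and 294 CPM under forced activity and 279 and 193 CPM under sleep restriction. All sleep restriction values were below all control values, by a narrow gap between forced activity 2 and sleep restriction 1. The means were 327 ± 46.8 and 236 ± 60.5 CPM (SD, n = 2 libraries each), and the difference within same-numbered libraries was -0.36 and -0.59 on the log2 scale. The log2 change of -0.47 (SE 0.23) had an adjusted p of 0.978 in edgeR (unadjusted 0.0718, rank 328 of the genes tested), and its 95% interval of -0.99 to 0.05 includes 0. The call was not reached by any alternative, and without sleep restriction 2 the log2 change was -0.24.

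**Figure D2:**
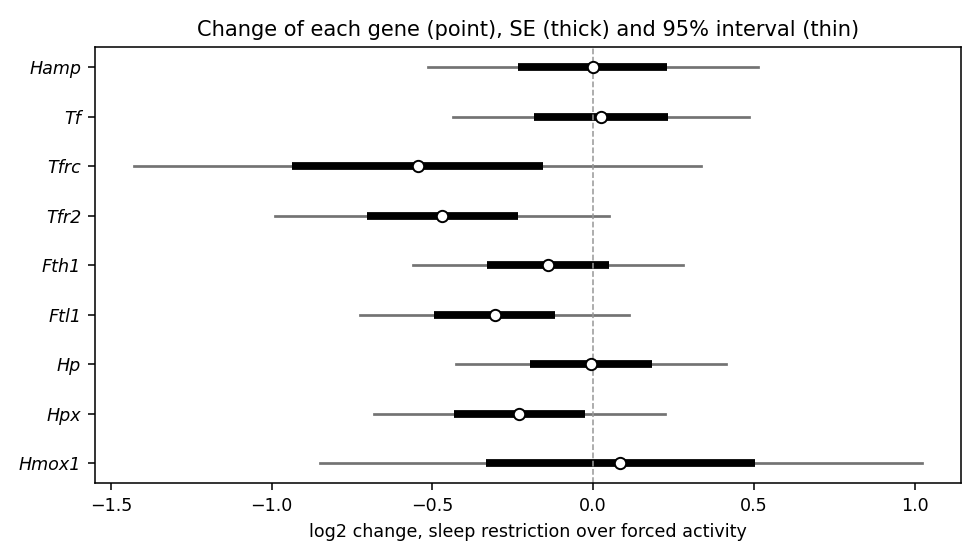
Log2 change of each iron and haem gene, sleep restriction over forced activity, as a point with its SE (thick bar) and 95% interval (thin bar) from the fit over all 4 libraries. All 9 intervals include 0, Tfr2 being the closest to leaving it at an upper bound of 0.05, and those of Tfrc and Hmox1 are the widest.

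Ferritin is a shell of H chains, which oxidise iron, and L chains, which help the core to form. Fth1 (ENSRNOG00000022619.6, chromosome 1 from 226030938 to 226033228), the H chain, measured 1742 and 1653 CPM under forced activity and 1657 and 1426 CPM under sleep restriction. The groups met at forced activity 2 and sleep restriction 1, and the log2 change was -0.14 (SE 0.19, 95% interval -0.56 to 0.28). Ftl1 (ENSRNOG00000020843.6, chromosome 1 from 101448346 to 101449829), the L chain, measured 672 and 722 CPM under forced activity and 578 and 549 CPM under sleep restriction. Both sleep restriction libraries were below both controls, an order that 15.5% of all genes tested had. The gap was wider than the difference between the libraries of either group, and the share of genes with such a gap was not counted.

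The L chain went from a mean of 697 ± 35.9 to 564 ± 20.2 CPM (SD, n = 2 libraries each). Its log2 change was -0.31 (SE 0.19, 95% interval -0.72 to 0.11), with an adjusted p of 0.978 in edgeR. Within same-numbered libraries the differences were -0.22 and -0.39 for Ftl1 and -0.07 and -0.21 for Fth1. Tfr2, Ftl1 and Fth1 were the 3 genes of the 9 that were negative within both numbers. The L chain held 27.8% and 30.4% of the summed ferritin CPM under forced activity and 25.9% and 27.8% in the sleep-restricted libraries, so that forced activity 1 and sleep restriction 2 were level in this share.

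Ferritin genes have processed copies, and how reads shared with them were counted is uncertain. The table lists 1 such row by name, Ftl1l1 on chromosome X, at 2.8 to 4.2 counts per library. Rows whose intervals overlap Fth1 (Best1) or Ftl1 (AC128792.1 and AC128792.2) were listed at 0 in each library. Ferritin and transferrin receptor output also depends on translation and message stability, which are not measured by these counts.

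Haptoglobin, which captures free haemoglobin, was level. Hp (ENSRNOG00000014964.8, chromosome 19 from 42097995 to 42100804) measured 11458 and 10045 CPM under forced activity and 10311 and 11086 CPM under sleep restriction. The 4 values spanned 1.14-fold, the narrowest range of the 9 genes, and the groups overlapped. The log2 change was -0.00708 (SE 0.19, 95% interval -0.43 to 0.41).

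Hemopexin, which carries free haem to the hepatocyte, had 1 high library. Hpx (ENSRNOG00000018257.5, chromosome 1 from 170423483 to 170431073) measured 8644 and 6561 CPM under forced activity and 6293 and 6670 CPM under sleep restriction. Forced activity 1 was above the other 3, which lay close together, and the groups overlapped. The log2 change was -0.23 (SE 0.20, 95% interval -0.68 to 0.22), with -0.46 within replicate 1 and 0.02 within replicate 2. Without forced activity 1 it was -0.02.

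Haem oxygenase 1, the inducible enzyme that breaks down haem, spanned the groups. Hmox1 (ENSRNOG00000014117.7, chromosome 19 from 14508616 to 14515456) was counted 14.8 and 20.4 times in the controls and 27.4 and 10 times in the sleep-restricted libraries, which is 31.8 and 38.9 CPM, then 55.0 and 20.3 CPM. The highest and the lowest value were both sleep restriction libraries. The log2 change of 0.09 (SE 0.42) had a 95% interval from -0.85 to 1.02, which spans 1.80-fold lower to 2.03-fold higher. Within replicate 1 the difference was 0.72 and within replicate 2 it was -0.82, and without sleep restriction 1 the log2 change was -0.80.

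Markers of Kupffer cells, the liver's macrophages that recycle red cells, were also highest in sleep restriction 1. Summed over 13 genes they measured 687 and 905 CPM under forced activity and 1075 and 758 CPM under sleep restriction. Of the 11 tested, 9 had a positive log2 change and 0 were called, with a median of 0.18. Timd4 was listed at 0 in each library. Cd163, the macrophage receptor for haptoglobin-bound haemoglobin, measured 23.3 and 25.3 CPM under forced activity and 40.7 and 20.3 CPM under sleep restriction, with its highest and lowest values in the same libraries as Hmox1. That order was held by 5 of the 11 tested markers, while 5 others were lowest in forced activity 1. Of the latter, Cd5l, Vsig4 and Clec4f were highest in forced activity 2. Marco and Csf1r, like the summed markers, were highest in sleep restriction 1 and lowest in forced activity 1. Sinusoidal endothelial markers measured 259 and 626 CPM, then 635 and 354 CPM. The part of these cells in the value of Hmox1 was not tested.

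**Figure D3:**
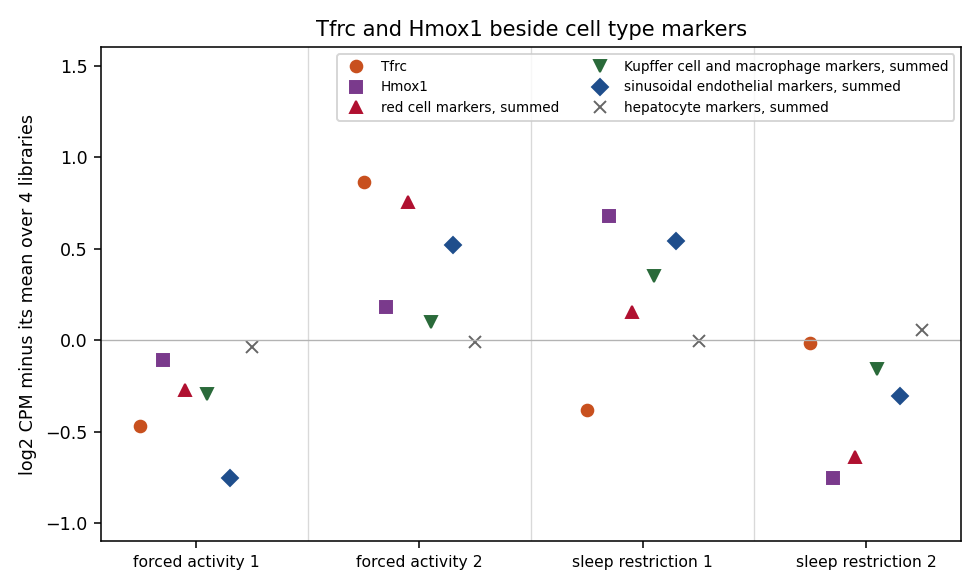
Log2 CPM of Tfrc, Hmox1 and the summed markers of 4 cell types in each library, each minus its own mean over the 4 libraries. Tfrc and the summed red cell markers are highest in forced activity 2, and Hmox1 and the summed Kupffer cell markers are highest in sleep restriction 1. The summed hepatocyte markers, mostly albumin, stay near 0.

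Of the 9 genes, 3 were negative within both replicate numbers, 0 were positive within both and 6 differed in sign. Over all genes tested these shares were 27.4%, 28.9% and 43.7%. The range over the 4 libraries had a median of 0.44 on the log2 scale, against 0.54 over all genes tested, and ran from 0.19 for Hp to 1.28 for Tfrc and 1.27 for Hmox1. Without sleep restriction 2, the library of whole numbers, 0 of the 9 were called, and the log2 change was -0.04 for Fth1, -0.28 for Ftl1, -0.75 for Tfrc and 0.62 for Hmox1.

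**Figure D4:**
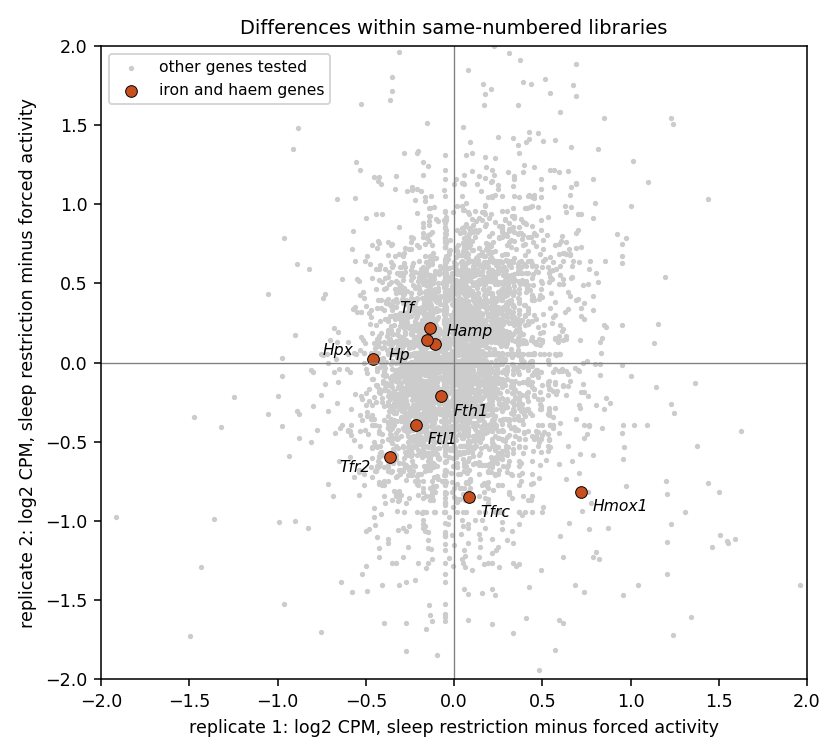
Difference in log2 CPM, sleep restriction minus forced activity, between the replicate 1 libraries (horizontal) and the replicate 2 libraries (vertical), for the 9 iron and haem genes (orange) and the other genes tested (grey, with 16 genes outside the axes). Tfr2, Ftl1 and Fth1 lie in the lower left quadrant, where both differences are negative, and Hmox1 lies in the lower right with 0.72 and -0.82.

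Genes that control hepcidin did not differ past the threshold. Of 20 listed genes with a row, 7 were tested, with 2 positive and 5 negative log2 changes, a median of -0.08 and 0 called. Tmprss6, the protease that restrains hepcidin, measured 373 and 226 CPM under forced activity and 303 and 219.8 CPM under sleep restriction. Hfe, the haemochromatosis protein, measured 53.0 and 37.0, then 38.7 and 42.7 CPM, with a log2 change of -0.14 (SE 0.29). The smallest p of the list belonged to Cebpa, a hepatocyte transcription factor, at 0.25 (SE 0.25), and Smad1, which relays BMP signals, at -0.26 (SE 0.31). The ligand Bmp6 (0.5 to 2.1 counts) and the BMP targets Id1 (1 to 4.2 counts) and Smad7 (5 to 10.7 counts) were too low to test. Fam132b, which encodes erythroferrone, was listed at 0.

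Other genes of iron uptake, export and storage were split. Of 19 with a row 10 were tested, 4 positive and 6 negative, with a median of -0.08 and 0 called. Cp, ceruloplasmin, the ferroxidase of plasma, measured 2104 and 1529 CPM under forced activity and 2227 and 2621 CPM under sleep restriction. Sleep restriction was higher without overlap, an order that 17.3% of all genes tested had. In this list 2 genes, Cp and Ireb2, were higher without overlap and 2 were lower. The log2 change of Cp, 0.42 (SE 0.21), had an adjusted p of 0.978 in edgeR. The iron regulatory proteins, which bind ferritin and transferrin receptor messages when iron is low, had opposite signs: Ireb2 had a log2 change of 0.42 (SE 0.27) and Aco1 had -0.24 (SE 0.24). Ncoa4, which delivers ferritin to the lysosome, had -0.06 (SE 0.23), and the importers Slc39a14 and Slc11a2 had -0.09 (SE 0.20) and -0.23 (SE 0.32). Steap3, a ferric reductase, had 3.8 to 7 counts and was not tested.

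Haem synthesis, the main use of iron outside storage, had its smallest p at its first enzyme. Alas1 measured 195 and 187 CPM under forced activity and 242 and 293 CPM under sleep restriction. Both sleep restriction libraries were above both controls, an order that 17.3% of all genes tested had. The log2 change of 0.49 (SE 0.21) had an unadjusted p of 0.0393 and an adjusted p of 0.978 in edgeR. Of all genes tested, 4.25% had an unadjusted p under 0.05 in that test. Slc25a38, the mitochondrial glycine carrier for that step, had the opposite sign, with 44.5 and 44.8, then 32.6 and 28.5 CPM and a log2 change of -0.54 (SE 0.28). Over the pathway 10 of 14 genes were tested, 3 positive and 7 negative, with a median of -0.11 and 0 called. Without overlap of the groups, 4 of the 10 were lower, Slc25a38 among them, and 1 was higher. The order of the 4 was held by 15.5% of all genes tested. Fech, which inserts the iron, had -0.04 (SE 0.25).

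Genes for uptake and breakdown of haem and haemoglobin had a median log2 change of 0.04 over 8 tested of 11, with 6 positive, 2 negative and 0 called. Ambp, the precursor of the haem-binding alpha-1-microglobulin, measured 5313 and 4765 CPM under forced activity and 4596 and 4208 CPM under sleep restriction. Its log2 change was -0.19 (SE 0.19). Blvrb, a biliverdin reductase, had -0.20 (SE 0.26), and Blvra had 5.3 to 9 counts and was not tested. Among genes that assemble iron-sulphur clusters, 11 of 21 were tested, 6 positive and 5 negative, with a median of 0.000505 and 0 called. Hspa9, the mitochondrial chaperone of that route, had 0.30 (SE 0.21), and Isca2 had -0.29 (SE 0.31).

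Hp, Hpx and Hamp are also acute phase genes. Of 16 tested of 19 genes of the interleukin 6 and STAT3 response, 10 were positive and 6 negative, with a median of 0.13 and 0 called. Without overlap of the groups, 6 of the 16 were higher and 0 lower, against 17.3% and 15.5% of all genes tested. The list was chosen with earlier results of these data known, and it was not tested as a set. Orm1, an acute phase glycoprotein, measured 591 and 438 CPM under forced activity and 786 and 1156 CPM under sleep restriction (log2 change 0.92, SE 0.24, adjusted p of 0.978 in edgeR), while Fgb, a fibrinogen chain, had 0.00256 (SE 0.20). Stat3 had 0.23 (SE 0.23) and Il6st, the shared receptor chain of interleukin 6, had 0.89 (SE 0.34), and Socs3, the feedback inhibitor, had 0.6 to 2 counts. The unadjusted p-values of Orm1 and Il6st in edgeR were 0.00344 and 0.0278, and both adjusted p-values were 0.978. These were the 2 of the 16 with an unadjusted p under 0.05, against 4.25% of all genes tested. Whether Hp or Hamp differed from Orm1 in its change was not tested.

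Hmox1 is a target of NRF2, the regulator of antioxidant genes, and is repressed by BACH1. Of 18 listed genes of this route with a row 9 were tested, 6 positive and 3 negative, with a median of 0.09 and 0 called. Gsta2, a glutathione transferase, had a log2 change of 0.86 (SE 0.36) and Nfe2l2, which encodes NRF2, had 0.62 (SE 0.31). Their unadjusted p-values in edgeR were 0.0341 and 0.0746, and both adjusted p-values were 0.978. Of all genes tested, 4.25% had an unadjusted p under 0.05 in that test. The value of Nfe2l2 rests on sleep restriction 2, at 167 CPM against 76.3 to 87.6 CPM in the other 3 libraries. Nqo1, a classical NRF2 target, had 3.4 to 6 counts and was not tested.

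**Figure D5:**
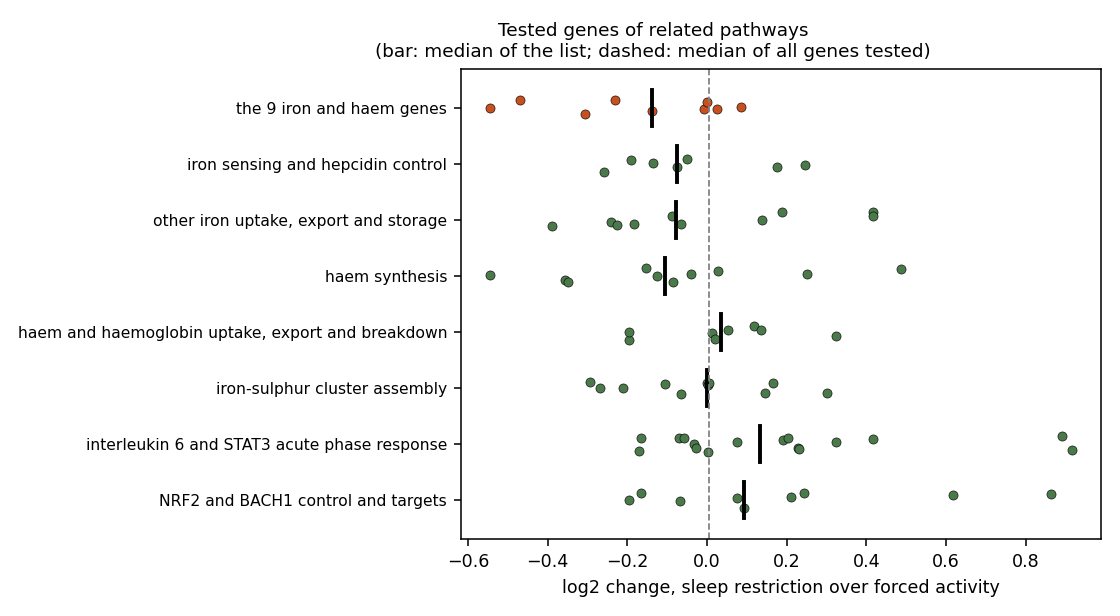
Log2 change, sleep restriction over forced activity, of each tested gene in 8 groups, with a bar at the median of each group and a dashed line at the median of all genes tested. The medians lie between -0.14 for the 9 iron and haem genes and 0.13 for the interleukin 6 and STAT3 genes, and 0 of the genes drawn were called.

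The genes most like a member in their profile were found by the Euclidean distance between log2 CPM profiles, each centred on its own mean over the 4 libraries. For Tfrc, the member with the widest range, they were Zfp142 (distance 0.0674), Stx16 (0.125) and Col27a1 (0.210), and 72 of the genes tested lay within a distance of 0.5. For Hamp they were Atp5e (0.0242), Vdac2 (0.0330) and Gapdh (0.0334). With 2560 genes within 0.5 of Hamp, a near-level profile over 4 libraries is shared widely.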

How the data were processed

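Rat liver RNA was extracted with TRIzol and made into messenger RNA libraries with an Illumina kit, per the labels' protocols. The submitters' processing notes name CASAVA, STAR 2.4.1d and rn6, without roles, and the counting program was not stated. Estimated counts per gene, stand in a single table deposited by the authors, in multiples of 0.1 for 3 libraries and in whole numbers (all rows but 1) for sleep restriction 2. The table's name has words for a minimum (MIN), for sense and for an average that carries a multiplier. With the near-equal totals, these were read as averages of random draws of reads to a common depth. What the minimum refers to and what was averaged are not stated, and no label describes draws. Whether sleep restriction 2 was the library with the fewest reads was not tested. Rows without a symbol (16) held at most 0.0563% of a library.

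Values were rounded and fitted with edgeR 4.0.16 in R 4.3.3 (TMM factors 0.972 to 1.04, filterByExpr with minimum count 10, robust quasi-likelihood with the current, not legacy, dispersion). SEs are Wald errors of that fit. CPM are TMM-scaled (per total of the genes kept, or of all genes for summed markers), and differences of log2 CPM use a prior count of 2. The code was tested on simulated data. The members, pathway and marker lists and tests were chosen with earlier results of these data known. Genes named are the 9 members, the 2 tested genes with the smallest p of each pathway list and a fixed set of iron and haem genes, of which Ugt1a1 was not analysed here. Red cell, Kupffer cell and filtered genes beside them were chosen after their values were seen. In all, 13 alternatives were run: other scalings, filters, DESeq2 1.42.0, limma-voom (limma 3.58.1), no robust estimation, no rounding, a replicate block and each library left out.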

Additional observations from a re-analysis of the deposited data

How the results depend on the processing

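None of the 9 iron and haem genes was called in the main test or under any of the 13 alternatives, where their smallest adjusted p was 0.470 (Tfr2, replicate block, unadjusted 0.0152). Over all genes the count of calls was 1, and it was 0 without a gene filter, with limma-voom and without robust estimation (342, 186 and 202 genes at an unadjusted p under 0.05), 11 with the replicate block, and 0 to 0 in the leave-one-out fits, which lend the single remaining library the spread of the other group. Shared replicate numbers are not tied to animals by any label, so the libraries were not taken as paired. Deviations from the group means had a correlation of 0.207 across genes between same-numbered libraries. With 2 libraries per group this value is necessarily the same for both numbers, and it cannot decide the pairing. The replicate block changed no call among the 9. Fth1, Ftl1, Hpx and Tfr2 were negative under each alternative. The sign of genes near 0 turned: Hamp had 0.00835 without the 10 most abundant genes, 0.00830 with limma-voom, 0.00418 unrounded and 0.00266 with the replicate block; Tf had -0.00536 without a filter, -0.00937 with 5 CPM in 2 libraries and -0.00461 with DESeq2; Hmox1 had -0.069 with limma-voom. With each library left out the log2 change ran from -0.18 to 0.20 for Hamp, -0.18 to 0.26 for Tf, -0.10 to 0.092 for Hp, -0.80 to 0.62 for Hmox1 and -1.05 to 0.28 for Tfrc, each crossing 0, and from -0.77 to -0.24 for Tfr2, -0.36 to -0.26 for Ftl1, -0.26 to -0.04 for Fth1 and -0.42 to -0.02 for Hpx. The cause was not tested. Without the 10 most abundant genes Tf and Hp, being among them, have no value. Hmox1 had 10 to 27.4 counts per library, the fewest of the 9, and what depth adds to its error was not tested.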
